A study of Mus musculus with 6 samples.

Results

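The kinesin superfamily was followed in mouse N2A cells after knockdown of Dali, a long non-coding RNA. Its members were taken by name: every probe set annotated to a single gene whose symbol is Kif, a number and at most one letter, which gave 37 of the 19938 genes that the arrays measured under a single symbol. Where a gene had several probe sets, the one with the highest mean over the 6 arrays was used, which applied to 5 of the 37 genes (42 probe sets in all). N2A is an established neuroblastoma line. Cells were transfected with 1.5 ug of an shRNA expression construct, either the Dali knockdown construct (3 samples) or a non-targeting vector (3 samples, called control). For the time at which total RNA was taken, the methods of the study give a range, with about 2.5 days as its middle. A figure legend of the study gives the later end of that range for this knockdown. The RNA was hybridised to Affymetrix gene arrays. The cultures of both groups were thus transfected, and none of the arrays measured a culture without a construct. The share of cells that took up the construct is not known here. The samples are numbered 1 to 3 in each group. The methods of the study call them biological replicates, and the labels do not say whether a number marks a shared day. Levels of Dali itself were not analysed here.

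Kinesins are motor proteins that hydrolyse ATP to walk along microtubules or to take their ends apart. A set of them is best known for work in cell division: they push the spindle poles apart, hold and move chromosomes and build the midzone at which the daughter cells separate, and their mRNAs are made mainly in late S, G2 and M phase. Some of these, Kif11 among them, also act on the microtubules of growing neurites. Others carry vesicles, organelles and mRNAs, and in neurons they drive transport along axons and dendrites. The 37 genes were therefore divided by role into 11 mitotic kinesins, 7 kinesins of neuronal transport, 8 of general transport, 6 of cilia and centrioles and 5 others.

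All 11 kinesins placed in the mitotic class had higher mean levels in Dali knockdown cells than in control cells. The median of their differences was 0.42 on the log2 scale (range 0.26 to 0.71), and 4 of them passed the test. These were Kif11, Kif15, Kif20b and Kif2c, each about 1.6-fold higher. The 7 neuronal transport kinesins had a median difference of -0.04 (range -0.15 to 0.13), and 0 of them passed. Over all 23410 annotated probe sets the median difference was 0.02, and 55.2% had a higher mean in knockdown cells. A gene was called when limma gave an adjusted p under 0.1 with a difference of at least 1.3-fold, and by this rule 0.367% of the 11705 probe sets tested were higher in knockdown cells and 1.14% were called in either direction. The test ran on probe sets that varied more than the median one. It included 21 of the 37 kinesins, all 11 mitotic and 2 neuronal genes among them; the other 16 could not be called, and their differences come from the same fit without that filter. None of the kinesins was called lower by limma, although Kif6 and Kif9 were lower at an unadjusted p under 0.05.

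Kif11 is the motor that slides antiparallel microtubules apart to make the spindle bipolar. Its log2 values were 12.15, 11.72 and 12.07 on knockdown arrays 1, 2 and 3, against 11.52, 11.06 and 11.27 on control arrays 1, 2 and 3. Every knockdown array was above every control array. Kif11 rose by 0.70 ± 0.16 (SE, n = 3 each), or 1.62-fold (limma, adjusted p = 0.067). Kif15 keeps the spindle bipolar alongside Kif11. Its values were 10.51, 10.10 and 10.34 on knockdown arrays and 9.85, 9.35 and 9.62 on control arrays. The groups again did not overlap, and the gene rose by 0.71 ± 0.16, or 1.63-fold (limma, adjusted p = 0.066).

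Kif20b, which acts in cytokinesis, had values of 10.51, 10.01 and 10.15 on knockdown arrays and 9.89, 9.31 and 9.39 on control arrays. The lowest knockdown array lay above the highest control array. Kif20b rose by 0.70 ± 0.17, or 1.62-fold (limma, adjusted p = 0.089). Kif2c does not walk but removes tubulin from microtubule ends, and corrects faulty attachments at centromeres. It had 11.02, 10.62 and 10.94 on knockdown arrays and 10.45, 9.95 and 10.17 on control arrays. This gene rose by 0.67 ± 0.16, or 1.59-fold (limma, adjusted p = 0.079), with groups that did not overlap. For each of the 4 genes the exact two-sided permutation test over arrays gave p = 0.1, the smallest that 3 arrays against 3 allow.

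The calls rested on the filter and on individual arrays. Without the variance filter, the adjusted p-values of the 4 genes were 0.158 to 0.209 and 0 were called. The count was also 0 without knockdown array 1 (adjusted p = 0.419 to 0.492) and without control array 2 (0.173 to 0.243), and Kif20b alone lost its call without control array 3 (0.111).

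**Figure D1:**
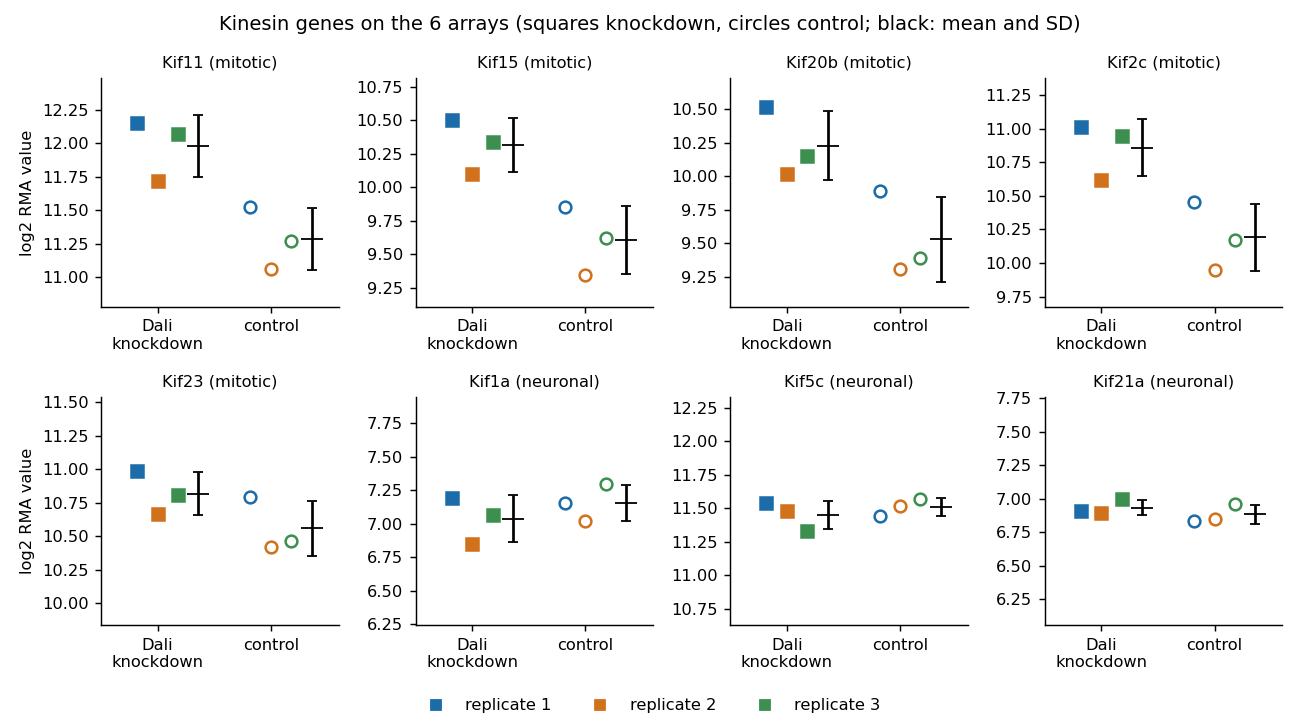
Log2 RMA values of 5 mitotic and 3 neuronal kinesins on each array, with Dali knockdown to the left of control, colour for the replicate number and black marks for the mean and SD; all panels span the same range of log2 values. In Kif11, Kif15, Kif20b and Kif2c the knockdown arrays lie above all control arrays, while in Kif23, Kif1a, Kif5c and Kif21a the groups overlap.

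The remaining 7 mitotic kinesins were not called, and all had higher means in knockdown cells. Kif4, a chromosome-bound motor that also acts at the central spindle, had 10.23, 10.05 and 10.36 on knockdown arrays and 10.01, 9.48 and 9.69 on control arrays. It was the only other mitotic kinesin whose groups did not overlap, with a difference of 0.49 (adjusted p = 0.176). Kif18a, which damps the movements of chromosomes at the metaphase plate, had 10.15, 9.82 and 10.01 on knockdown arrays and 9.95, 9.37 and 9.39 on control arrays, a difference of 0.42 (adjusted p = 0.28). Kif20a takes the chromosomal passenger complex to the midzone. Its values were 11.48, 11.13 and 11.45 on knockdown arrays and 11.23, 10.70 and 10.92 on control arrays, a difference of 0.40 (adjusted p = 0.29). In both genes knockdown array 2 fell below control array 1.

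Kif14, a motor of cytokinesis, had 9.38, 9.19 and 9.35 on knockdown arrays and 9.24, 8.77 and 8.86 on control arrays, a difference of 0.35 (adjusted p = 0.33). A second, dimmer probe set of Kif14 differed by 0.04. Kif18b, which limits the length of astral microtubules, had 11.85, 11.55 and 11.85 on knockdown arrays and 11.70, 11.19 and 11.37 on control arrays, a difference of 0.33 (adjusted p = 0.39). Kif22 pushes chromosome arms away from the poles. It had 11.10, 10.79 and 10.90 on knockdown arrays and 10.89, 10.48 and 10.53 on control arrays, a difference of 0.30 (adjusted p = 0.43). Kif23, the motor of the centralspindlin complex, showed the smallest difference of the class, 0.26 (adjusted p = 0.50), with 10.98, 10.66 and 10.80 on knockdown arrays and 10.80, 10.42 and 10.46 on control arrays. In the last 4 genes the lowest knockdown array lay below the highest control array.

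The 11 mitotic genes shared an order of arrays within each group. How many of all probe sets have this order was not counted. Knockdown array 2 was the lowest of its group and control array 2 the lowest of its group in 11 of 11 genes. Control array 1 was the highest control array in 11 of 11, and knockdown array 1 was the highest knockdown array in 10. In 5 of the genes knockdown array 2 exceeded control array 1, and in all 11 it exceeded control arrays 2 and 3. Between arrays of the same number the median difference of the class was 0.22 for number 1, 0.45 for number 2 and 0.62 for number 3, and every gene was higher in knockdown in all 3 of these pairs. Among all annotated probe sets, 21.7% were. The genes of the class were measured on the same 6 arrays and moved with one another across them, so they are not 11 independent observations.

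Arrays of the same number deviated together from their group means (correlations 0.141 to 0.655). For number 1 this was weak, since control array 1 correlated more with knockdown array 2 (0.202) than with knockdown array 1 (0.141). With the replicate number as a term in the limma fit, the count of kinesins called higher was 7 in place of 4: Kif4 (adjusted p = 0.025), Kif20a (0.028) and Kif18a (0.032) were added to Kif15 (0.0073), Kif20b (0.0075), Kif11 (0.0077) and Kif2c (0.0081). In that fit 2.77% of the probe sets tested were called higher, 4.89% lower and 7.65% in either direction. The other 4 mitotic kinesins, Kif14 (0.048), Kif22 (0.050), Kif18b (0.051) and Kif23 (0.074), were also under 0.1 there but missed the minimum of 1.3-fold. The shares above require that minimum, and the share of probe sets under 0.1 without it was not counted. The RNA came from whole cultures, so a larger share of dividing cells and more mRNA of these genes in each cell cannot be told apart.

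**Figure D2:**
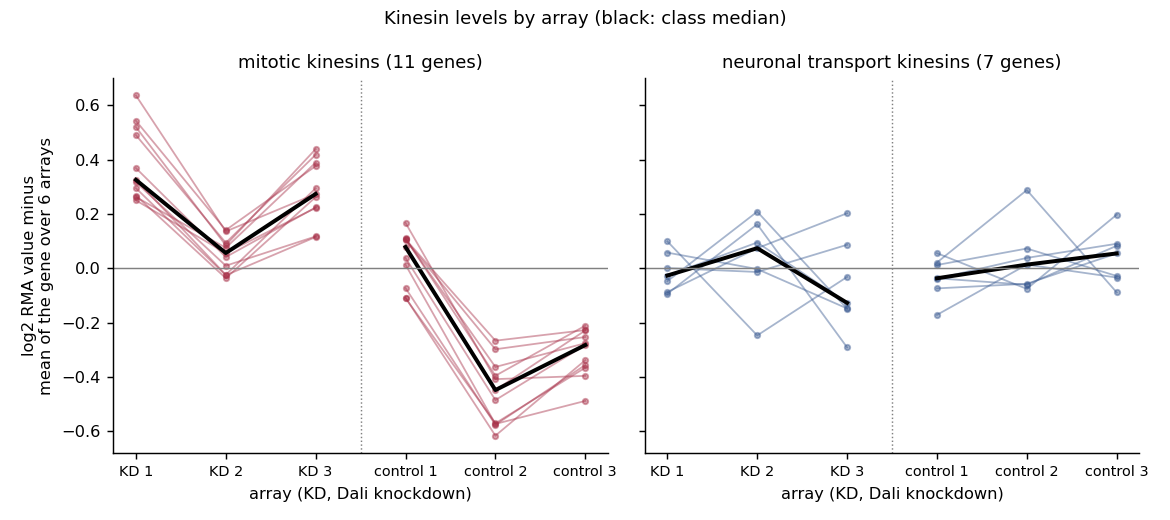
Log2 RMA values of the 11 mitotic kinesins (left) and the 7 neuronal transport kinesins (right) on knockdown arrays 1 to 3 and control arrays 1 to 3, each as the deviation from the mean of the gene over the 6 arrays; thin lines are genes and the black line is the class median. The mitotic genes move together, with array 2 the lowest of each group in 11 of 11 genes, and the lines of the neuronal genes cross.

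The neuronal transport kinesins differed by at most 0.15 in either direction. Kif1a, Kif17 and Kif21a averaged 7.04, 7.67 and 6.93 on knockdown arrays and 7.15, 7.82 and 6.88 on control arrays. These averages lay below the array medians (7.86 to 7.93), while those of Kif5a, Kif5c, Kif3c and Kif21b lay above them. Whether such low levels limited the differences was not tested. Kif1a, which carries precursors of synaptic vesicles down the axon, had 7.19, 6.85 and 7.06 on knockdown arrays and 7.15, 7.02 and 7.29 on control arrays, a difference of -0.12 (95% interval -0.42 to 0.18, adjusted p = 0.83). Kif17, a motor of dendritic transport, had 7.65, 7.91 and 7.46 on knockdown arrays and 7.77, 8.03 and 7.66 on control arrays, a difference of -0.15 (-0.47 to 0.18, adjusted p = 0.78). These were the 2 neuronal members that the filter retained, and Kif17 was lower in knockdown in each pair of arrays of the same number.

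Kif5a and Kif5c are heavy chains of conventional kinesin that are enriched in neurons. Kif5a had 10.25, 10.50 and 10.14 on knockdown arrays and 10.26, 10.23 and 10.38 on control arrays, a difference of 0.01 (-0.24 to 0.25). Kif5c had 11.54, 11.48 and 11.33 on knockdown arrays and 11.44, 11.52 and 11.57 on control arrays, a difference of -0.06 (-0.26 to 0.14). Kif5b, the widely expressed heavy chain, differed by 0.02. Kif3c, a neuronal kinesin-2 motor, had 10.10, 10.22 and 10.00 on knockdown arrays and 10.14, 10.20 and 10.10 on control arrays, a difference of -0.04 (-0.24 to 0.16).

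Kif21a and Kif21b are neuronal members of the kinesin-4 family, to which the mitotic Kif4 also belongs. Kif21a had 6.91, 6.90 and 7.00 on knockdown arrays and 6.84, 6.85 and 6.96 on control arrays, a difference of 0.05 (-0.13 to 0.23). Kif21b had 8.09, 8.25 and 8.38 on knockdown arrays and 8.01, 8.19 and 8.15 on control arrays, a difference of 0.13 (-0.10 to 0.36). The groups overlapped in all 7 neuronal genes, and in 0 of them was the unadjusted limma p under 0.05. Their intervals include 0 but also changes of up to 0.36 upward and 0.47 downward, so an unchanged level was not shown. The smallest mitotic difference (0.26) lay above the largest neuronal one (0.13), with Kif2a (-0.08) and Kif2b (0.04) placed outside the mitotic class. Since the classes were drawn up with results of these data known, no test of the classes against each other was made.

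**Figure D3:**
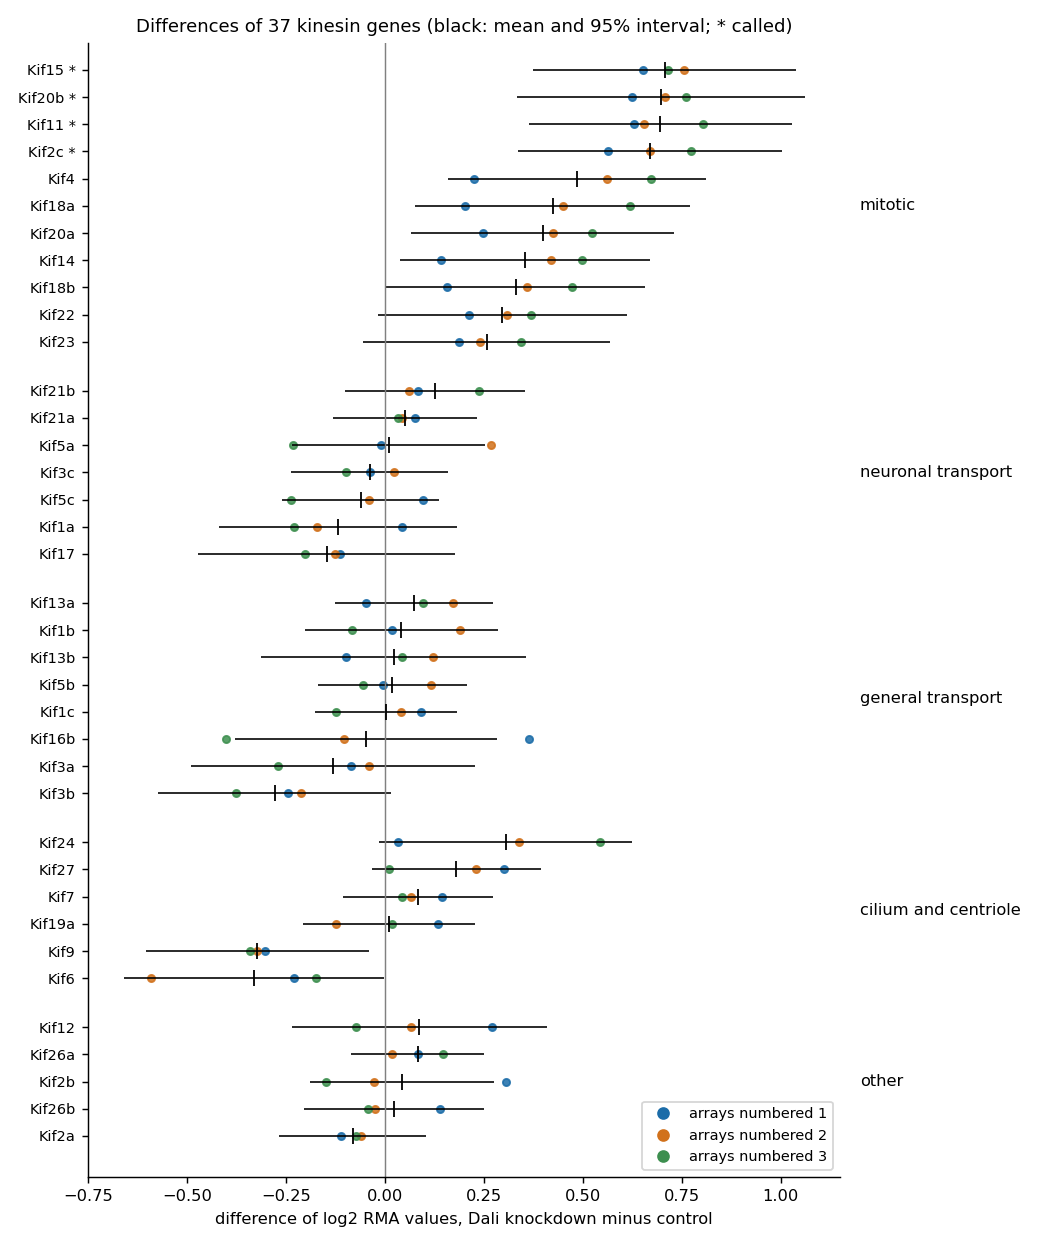
Difference of log2 RMA values, Dali knockdown minus control, for the 37 kinesins by class; black marks give the mean difference and its 95% interval from limma, coloured points the difference between arrays of the same number, and stars the called genes. The 11 mitotic genes lie to the right of 0 in every pair, and the other classes lie on both sides of 0.

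Of the 26 kinesins outside the mitotic class, 16 had a higher and 10 a lower mean in knockdown cells (median 0.01). Those of general transport ranged between -0.28 and 0.07. Kif13a (0.07), Kif1b (0.04), Kif13b (0.02), Kif5b (0.02), Kif1c (0.003) and Kif16b (-0.05) lay close to 0, and the lowest were Kif3a (-0.13) and Kif3b (-0.28). Kif3a and Kif3b are the paired motor subunits of heterotrimeric kinesin-2, which carries cargo into cilia and along axons. Kif3b had 9.45, 9.48 and 9.17 on knockdown arrays and 9.70, 9.69 and 9.55 on control arrays (limma, adjusted p = 0.42), and its groups did not overlap.

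The genes of cilia and centrioles spread the most, between -0.33 and 0.31. Kif24, a microtubule-depolymerising kinesin that acts at the mother centriole, had 8.74, 8.70 and 8.69 on knockdown arrays and 8.71, 8.36 and 8.14 on control arrays, a difference of 0.31 (adjusted p = 0.42). Kif9 and Kif6 form the kinesin-9 family of motile cilia. Kif9 had 7.28, 7.43 and 7.30 on knockdown arrays and 7.58, 7.76 and 7.64 on control arrays, a difference of -0.32 (adjusted p = 0.32), and its groups did not overlap. With the replicate number as a term its adjusted p was 0.035, at less than 1.3-fold. Kif6 had 8.14, 8.03 and 7.87 on knockdown arrays and 8.37, 8.62 and 8.05 on control arrays, a difference of -0.33 (adjusted p = 0.39), while its second probe set differed by 0.02.

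The Hedgehog pathway kinesin Kif7 (0.08) and its relative Kif27 (0.18) had slightly higher means, and Kif19a, which sets the length of cilia, differed by 0.01. The 5 other kinesins were Kif12 (0.09), Kif26a (0.08), Kif2b (0.04), Kif26b (0.02) and Kif2a (-0.08). Kif2a and Kif2b are depolymerases of the same family as the mitotic Kif2c. Neither was placed in the mitotic class, so the counts of that class leave them out. Kif2a was lower in knockdown in each pair of arrays of the same number, and Kif2b was higher in 1 pair. Counted over all 37 kinesins, the knockdown arrays all lay above the control arrays in 6 genes (the 4 called genes, Kif4 and Kif26a) and below them in 2 (Kif3b and Kif9), against 8.59% and 6.84% of annotated probe sets.

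Among partners of the mitotic kinesins, 36 genes of spindle, kinetochore and midzone proteins were measured, and the filter kept 32 of them. Of the 36, 34 were higher on average in knockdown cells (median 0.34). In 18 all knockdown arrays lay above all control arrays, against the 8.59% of annotated probe sets. Only Kntc1, a kinetochore protein of the spindle checkpoint, was called. It had 9.90, 9.59 and 9.96 on knockdown arrays and 9.28, 8.89 and 9.12 on control arrays, and rose 1.65-fold (limma, adjusted p = 0.053); without the filter its adjusted p was 0.131, and it was not called without knockdown array 1 or without control array 2. The 2 genes with lower means, named after their values were seen, were Racgap1 (-0.08), which binds Kif23 in centralspindlin, and Ckap5 (-0.10), a microtubule polymerase. With the replicate number as a term 15 of the 32 partners tested were called higher, in a fit that called 2.77% of probe sets higher. Among the 15 were Tpx2 (difference 0.46), a spindle assembly factor that in human cells binds Kif11 and Kif15, and Prc1 (0.44), the midzone bundler that recruits Kif4.

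Other kinesin chains and adaptors, whose symbols do not follow the Kif pattern, numbered 9 measured genes, of which 2 had higher and 7 lower means. The filter kept 4 of the 9, and limma called 0 of them. For 2 of the 9 the unadjusted limma p was under 0.05, against 1588 of the 23410 annotated probe sets. Cenpe, the kinetochore kinesin of mitosis, had 10.57, 10.03 and 10.31 on knockdown arrays and 10.11, 9.47 and 9.57 on control arrays, a difference of 0.59 (adjusted p = 0.152). Kifap3, the cargo-binding subunit of the Kif3a and Kif3b motor, had 9.57, 9.70 and 9.54 on knockdown arrays and 10.09, 10.08 and 9.98 on control arrays, a difference of -0.45 (adjusted p = 0.142). With the replicate number as a term Cenpe was called higher (adjusted p = 0.011) and Kifap3 lower (0.015). That fit called 2.77% of the probe sets tested higher and 4.89% lower.

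Adaptors and cargoes of neuronal transport numbered 35 measured genes, of which 9 had higher and 26 lower means (median -0.06). The filter kept 16 of the 35, and limma called 0 of them. For 2 of the 35 the unadjusted limma p was under 0.05, against 1588 of the 23410 annotated probe sets. The pair with the smallest p-values, were Gria2 and Dclk1, and both were called lower with the replicate number as a term, in a fit that called 4.89% of probe sets lower. Gria2, an AMPA receptor subunit, had 9.84, 10.09 and 9.50 on knockdown arrays and 10.37, 10.43 and 10.37 on control arrays, a difference of -0.58 (adjusted p = 0.111, and 0.018 with that term). Dclk1, a microtubule-binding kinase related to doublecortin, differed by -0.54 (0.164, and 0.011 with that term). Cytoplasmic dynein, the motor of the opposite direction, and dynactin numbered 24 measured genes with a median of -0.02. The filter kept 9 of these 24 genes, and limma called 0 of them. For 1 of the 24 the unadjusted limma p was under 0.05. The smallest p-values were those of Dctn2 (-0.36, adjusted p = 0.27), a subunit of dynactin, and Spdl1 (0.31, adjusted p = 0.40), which recruits dynein to kinetochores.

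**Figure D4:**
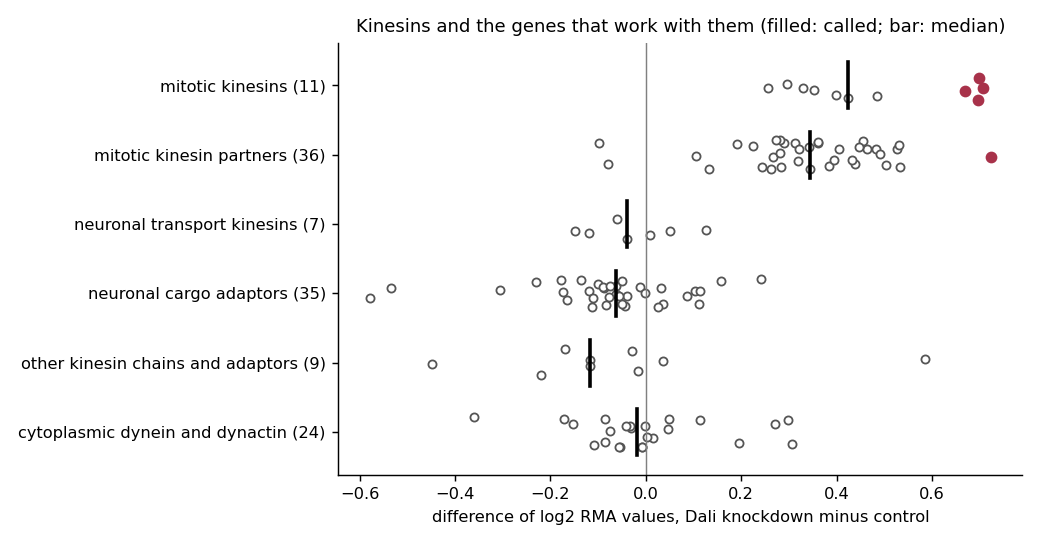
Difference of log2 RMA values, Dali knockdown minus control, for the mitotic and neuronal kinesins and for the genes that work with them; each circle is a gene, filled where called, and the bar is the median. Mitotic kinesins (median 0.42) and their partners (0.34) lie mostly to the right of 0, and the other lists lie around it.

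The label of the cells was checked with 11 measured genes of neuroblastoma and noradrenergic neurons, of which Tubb3 and Stmn2 are also in the list of adaptors and cargoes. Chga and Chgb, the granins of secretory granules, averaged 13.06 and 13.18 on knockdown arrays, against 13.20 and 13.40 on control arrays. Not all of the list read so high: Th, the enzyme that starts catecholamine synthesis, averaged 8.91 on knockdown arrays and 9.16 on control arrays, and the neurofilament genes Nefl and Nefm averaged 6.11 and 6.08 on knockdown arrays, against 6.22 and 5.92 on control arrays. The median of these 11 genes was 11.15, 11.12 and 10.81 on knockdown arrays 1, 2 and 3, below the 11.34, 11.27 and 11.42 on the control arrays. Of the 11, 9 had lower means in knockdown cells, and limma called 0 of the 5 that the filter kept. Markers of fibroblasts, macrophages, astrocytes, oligodendrocytes and endothelium (21 genes measured) averaged between 5.17 and 8.63 on knockdown arrays and between 5.02 and 8.72 on control arrays, a range that includes the level of Nefl and Nefm, though levels of different probe sets are not comparable. They had median differences between -0.09 and 0.06, and limma called 0, though not all of them passed the filter. The part that these values have in the kinesin differences was not tested.

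The promoters of the mitotic kinesins are shown because the genes of this class shared an order across the arrays. Whether the promoters have a part in that order was not tested. The CHR, a short element bound by the DREAM complex and MuvB, and CCAAT boxes bound by NF-Y are known for control of genes of the late cell cycle, and E2F sites for control of genes of S phase. Windows of 300 bases (250 before and 50 after a RefSeq start, GRCm38.p6) matched 31 of the 37 kinesins, 10 of the 11 mitotic ones among them. The sequences run 5′ to 3′ on the strand of the gene, with matches to the motifs in capitals and positions counted from the start (1), the base before it being -1. The first 4 belong to the genes that were called: Kif11 at chr19:37376322-37376381 (plus strand), Kif15 at chr9:122951021-122951080 (plus strand), Kif20b at chr19:34922358-34922387 (plus strand) and Kif2c at chr4:117178833-117178892 (minus strand).
Kif11: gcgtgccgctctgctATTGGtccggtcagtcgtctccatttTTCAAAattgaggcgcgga
Kif15: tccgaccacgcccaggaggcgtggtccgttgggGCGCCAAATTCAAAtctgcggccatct
Kif20b: gccattgTTTGAATTTGAAaaccgggagga
Kif2c: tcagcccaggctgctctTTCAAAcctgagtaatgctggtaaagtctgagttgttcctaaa

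In Kif11 the CHR (TTTGAA, on the opposite strand) spans -19 to -14, with a CCAAT box at -45. In Kif15 it has the same position, -19 to -14, and an E2F match directly before it. Kif20b carries the element in tandem, just after the start. The start used for the window of Kif2c lies 3852 bases inside the gene from its outermost annotated start, and its match lies at -103. Other members of the class are shown for comparison, Kif4 at chrX:100626060-100626089 (plus strand), Kif22 at chr7:127042421-127042480 (minus strand), Kif23 at chr9:61946780-61946809 (minus strand) and Kif18a at chr2:109280678-109280737 (plus strand), with the centriolar Kif24 at chr4:41464849-41464908 (minus strand) and the neuronal Kif5c at chr2:49619226-49619285 (plus strand).
Kif4: ATTGGctggcgcctctgggatcaaTTTGAA
Kif22: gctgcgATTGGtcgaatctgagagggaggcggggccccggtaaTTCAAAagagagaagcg
Kif23: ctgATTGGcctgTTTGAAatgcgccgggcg
Kif18a: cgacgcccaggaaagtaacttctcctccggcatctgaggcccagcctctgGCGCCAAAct
Kif24: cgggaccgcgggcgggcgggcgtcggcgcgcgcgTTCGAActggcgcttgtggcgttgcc
Kif5c: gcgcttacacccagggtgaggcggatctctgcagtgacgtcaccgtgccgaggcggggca

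The CHR, searched as TTTGAA or TTCGAA on both strands, was found in the windows of 9 of the 10 mitotic kinesins, all but Kif18a, and in 4 of the 21 other kinesins with a window (Kif1a, Kif24, Kif26b and Kif27). The count includes Kif14, whose match lies at -228 of a start 1547 bases inside the gene, and Kif27, whose start lies 9798 bases inside it. Among all 32851 promoter windows, 19.2% held it. Within 50 bases of the start, a limit chosen after the positions were seen, it was present in 7 of the 10 mitotic kinesins and in 3 of the 21 others, against 5.31% of all windows. In the neuronal class only Kif1a matched, and 0 of the general transport genes did. The windows of Kif1a start 165 and 19559 bases inside its outermost annotated start, and the match is not assigned to either here.

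CCAAT boxes (CCAAT, both strands) were present in 6 of the 10 mitotic kinesins, in 8 of the 21 others and in 37.4% of all windows, and in 0 of the neuronal genes. The E2F motif TTTGGCGC or TTTCGCGC occurred in Kif15 and Kif18a, in 0 of the other kinesins and in 0.813% of all windows, and TTCCCGCC occurred in Kif6 alone, against 2.19% of all windows. The CHR and E2F matches of Kif15 adjoin but share no base. A match is only a run of letters. The uncalled Kif22 and Kif23 have a CHR close to the start as the called Kif11 and Kif15 do, and Kif24 and Kif26b hold it outside the mitotic class.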

How the data were processed

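Total RNA (200 ng per sample) of 3 Dali knockdown and 3 control N2A cultures was labelled and hybridised to Affymetrix Mouse Gene arrays, 1 array per sample. The deposited values are log2 expression values that the authors made with RMA (background correction, quantile normalisation and summary per probe set); scanner files were not used here. The table had 35556 rows, of which 12146 have no gene in the annotation used and 1621 carry several symbols. Quantile normalisation gives all arrays nearly the same distribution (medians 7.86 to 7.93), so a shift of total mRNA would not be seen, and values of different probe sets are not comparable. Correlations between arrays were 0.990 to 0.997. Array number, 3 per group, limits the precision.

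The 23410 annotated probe sets were filtered to the 11705 whose interquartile range across arrays exceeded the median of 0.147 and tested with limma 3.58.1 (lmFit, eBayes, two-sided; R 4.3.3) with Benjamini-Hochberg adjustment; the script was tested on simulated data. Calls needed an adjusted p under 0.1 and at least 1.3-fold. Arrays of the same number had deviations that correlated at 0.141, 0.646 and 0.655, so the number was also entered as a block; the pairing comes from the numbers in the labels and this check only, and control 1 correlated more with knockdown 2 (0.202) than with knockdown 1.

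All mitotic and neuronal kinesins are given with every array, the other members with their difference, and of each list the called genes, or the 2 with the smallest p where none was called; others are said to be chosen after their values were seen or because the block called them. The members, the classes, the lists and the motifs were chosen with earlier results of these data known. Alternatives were no filter, all rows, array medians centred, the block, a trended prior, array weights, other thresholds, other probe set rules and each array left out. Promoters came from RefSeq (GRCm38.p6). Proteins were not analysed here.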

Additional observations from a re-analysis of the deposited data

How the results depend on the processing

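The count of kinesins called higher was 4. It was 0 without the variance filter, 0 when all rows entered the filter, 0 at an adjusted p under 0.05 and 7 with the replicate block, and lay between 0 and 5 when arrays were left out in turn. The count called lower was 0, and 1 with array weights (Kif6). Of the mitotic partners 1 was called higher, 0 without the filter and 15 with the replicate block (0 to 7 with arrays left out). Of the other kinesin chains 0 were called in either direction, and with the replicate block 1 was higher and 1 lower (0 to 1 each with arrays left out). Of the neuronal adaptors 0 were called lower, and 2 with the replicate block (0 to 2 with arrays left out). The difference of Kif5a, 0.0089, was -0.0068 with array weights and lay between -0.0933 and 0.0853 with arrays left out, negative without Dali knockdown replicate 2 (-0.0933), control replicate 1 (-0.0071) or control replicate 2 (-0.0190). That of Kif3c, -0.04, lay between -0.0959 and 0.0153, positive only without Dali knockdown replicate 3.

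The median difference of the mitotic kinesins stayed between 0.33 and 0.61 with arrays left out, and that of the neuronal kinesins between -0.08 and 0.02; centring the arrays gave 0.45 and -0.01, and the 2 neuronal genes that the filter retained had a median of -0.13. Of the alternatives for single mitotic and neuronal genes, 189 left the call as it was, 17 ended it, 5 added it and 5 turned the sign; where a setting's filter removed a gene, its difference was taken without the filter and it counted as not called. With the block each probe set has 2 residual degrees of freedom, against 4 without it. More probe sets were tested without the filter, and fewer arrays entered the fit when 1 was left out. The cause of these shifts was not tested.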
